A study of Homo sapiens with 6 samples.

Results

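Integrins and the proteins that gather at their cytoplasmic tails form focal adhesions, and 40 genes that code for them are described here. The genes were named from a list and looked up by symbol, and all were present among the 17064 genes of the expression table. Of these, 17 code for integrin subunits and 23 for proteins of the cytoplasmic side of the adhesion site. In the annotation deposited with the table, 21 of the 40 carry the GO component term cell-substrate adherens junction, against 0.592% of all genes. RNA was sequenced from MDA-MB-231 cells, a human breast cancer line from a metastatic site, in 6 libraries. The cells carried lentiviral CRISPR vectors and were grown as subconfluent cultures. There were 2 vector control libraries (vector 1 and vector 2, empty vector, from separate transductions), 1 library with a CDC42BPA knockout (MRCKα KO), 1 with a CDC42BPB knockout (MRCKβ KO) and 2 with both genes targeted (DKO 1 and DKO 2, made with different guides). All 6 libraries, controls included, therefore came from transduced and selected cells. No clones were picked, so each library is a pool of cells that may carry different edits, and which guides made which library was not given.

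MRCKα and MRCKβ are kinases that act downstream of the GTPase CDC42 and raise actomyosin contractility through myosin light chain phosphorylation. Integrins are pairs of an alpha and a beta subunit that span the membrane and bind extracellular matrix. Talins and kindlins bind the tails of beta subunits, vinculin and actinins link talin to actin filaments, and a layer of kinases and adaptors around FAK, SRC, p130Cas and paxillin signals from the site. Focal adhesions grow under myosin tension, and the comparison of knockout with vector asks whether RNA of their components differs when these kinases are targeted.

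Totals were between 10349898 and 10657857 expected counts a library. RNA of the targeted genes remained in all libraries. CDC42BPA was between 26.06 and 29.43 FPKM in the 3 libraries where it was targeted and between 23.32 and 36.43 FPKM in the others. CDC42BPB was between 23.42 and 25.7 FPKM where targeted and between 27.29 and 30.28 FPKM elsewhere. Edits of this kind need not remove RNA, so RNA levels cannot show whether a gene was knocked out. In MDA-MB-231 cells made this way, the study reported highly efficient deletion by Western blot of the proteins. It also reported slightly more MRCKβ protein in MRCKα KO cells. Whether the blotted cells were those sequenced was not given. In an assay of the same kinds of cells, the study reported identical adhesion to collagen in knockout and control lines. The 4 genes VIM, CD44, EGFR and AXL of mesenchymal-type MDA-MB-231 cells were high, with VIM between 1532.08 and 2052.46 FPKM. The labels call the cells epithelial, and of 5 epithelial and hormone receptor genes 2 had a mean of at least 1 FPKM, ERBB2 between 13.23 and 16.15 FPKM and EPCAM between 0.73 and 2.62 FPKM. E-cadherin (CDH1), estrogen receptor (ESR1) and progesterone receptor (PGR) reached at most 0.64, 0.87 and 0.03 FPKM. Of 4 endothelial markers, PECAM1 was between 0.93 and 1.88 FPKM and KDR between 1.26 and 2.04 FPKM, while CDH5 and VWF were at most 0.07 and 0.05 FPKM. In cell pools, fewer cells that express a gene and less RNA per cell cannot be told apart.

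The sequences shown are promoter windows of the members with a CArG box, the element bound by serum response factor, which is coupled to actin dynamics. They are shown because several genes of the focal adhesion are known targets of that factor. RefSeq promoters (GRCh38.p14) matched 31 of the 40 members, with 65 start sites. In the 250 bases before the start, searched on both strands, a CArG box was found in 5 of the 31 members and in 7 of the 65 promoters, which is 10.8%, against 1.16% of all 35116 promoters. The AP-1 motif TGANTCA was in 9.23% of the members' promoters and 6.57% of all, the TEAD motif GGAATG in 18.5% and 11.9%, and the GC box GGGCGG in 47.7% and 42.6%. Counted per gene, a CArG box was in 16.1% of the 31 members and 1.44% of all genes. The AP-1 motif was in 12.9% and 8.06%, the TEAD motif in 32.3% and 14.3%, and the GC box in 74.2% and 46.2%. The box is in capitals, each window is written along the strand of its gene, and in TES the box overlaps a TEAD motif by its last bases. A match in these letters is a description of the window and not of binding. The windows of ACTN1, TES and LPP lie wholly within the span of their gene in GENCODE v29, before an internal start. Which start was used in these cells was not examined, so a box cannot be tied to the level of its gene.
ITGB6 (chr2:160200298-160200357, minus strand): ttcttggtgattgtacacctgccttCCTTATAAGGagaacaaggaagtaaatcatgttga
ACTN1 (chr14:68977703-68977762, minus strand): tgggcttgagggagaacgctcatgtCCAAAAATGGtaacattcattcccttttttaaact
TES (chr7:116222703-116222745, plus strand): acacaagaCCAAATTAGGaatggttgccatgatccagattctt
LPP (chr3:188212504-188212563, plus strand): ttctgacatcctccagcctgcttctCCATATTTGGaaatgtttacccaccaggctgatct
FHL2 (chr2:105438580-105438639, minus strand): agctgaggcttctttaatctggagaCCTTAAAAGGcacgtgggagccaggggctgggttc
The 5 genes with a box differed widely in level. ITGB6, a subunit of epithelial integrins, was at most 0.07 FPKM, while ACTN1, an actin cross-linker, was at least 236.45 FPKM in every library. In DKO against vector the fitted log2 fold changes of the 4 tested ones were 0.30 for ACTN1, 0.01 for TES, 0.14 for LPP and -0.01 for FHL2, and none passed the test.

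The integrin repertoire of these cells was led by 1 alpha and 1 beta subunit. FPKM is a read count scaled by transcript length and library total, so levels of different genes can be set side by side. ITGA3, the laminin-binding α3 subunit, was at 254.44 and 276.85 FPKM in the vector pair and 244.54 and 221.22 in the DKO pair, with 205.47 in MRCKα KO and 265.10 in MRCKβ KO. It made up between 63.1% and 67.3% of the summed FPKM of the 10 alpha subunits in a library. ITGB1, the β1 subunit that pairs with most alpha subunits, was at 339.39 (vector 1), 444.58 (vector 2), 326.79 (MRCKα KO), 340.90 (MRCKβ KO), 335.66 (DKO 1) and 377.88 FPKM (DKO 2). It made up between 85.1% and 93.4% of the summed FPKM of the 7 beta subunits.

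**Figure D1:**
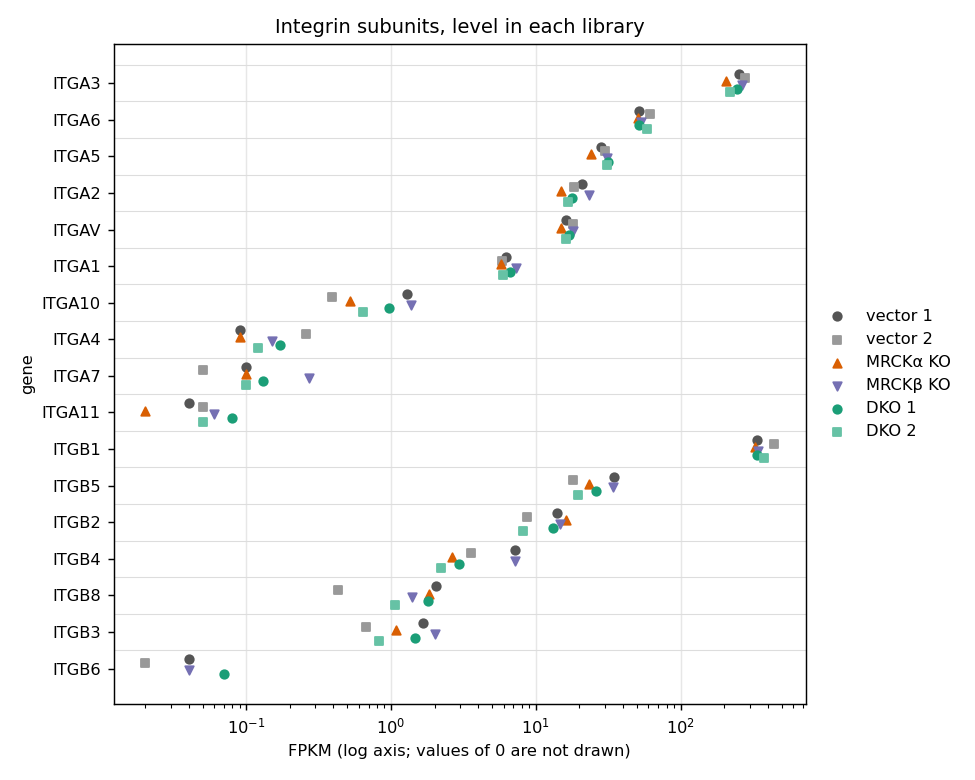
FPKM of the 17 integrin subunit genes on a log axis, 1 symbol a library, with alpha subunits above and beta subunits below, each in order of mean level. ITGA3 and ITGB1 lie above 200 FPKM in every library, and the symbols of ITGA10, ITGB3, ITGB4 and ITGB8 are spread widely while those of ITGA6 lie close together.

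Below ITGA3 came ITGA6, the α6 laminin receptor subunit, at 51.67 FPKM in vector 1 and 61.58 in vector 2, against 50.97 in MRCKα KO, 53.04 with MRCKβ knocked out and 51.37 and 58.62 with both. ITGA5, the α5 subunit of the fibronectin receptor, was at 28.05 and 29.86 FPKM in the vector pair and 31.76 and 30.94 in the DKO pair, with 23.89 in MRCKα KO and 30.93 in MRCKβ KO. Each of these alpha subunits lay below the one before it in every library. ITGA2, the α2 collagen receptor subunit, was at 20.73 (vector 1), 18.26 (vector 2), 14.84 (MRCKα KO), 23.17 (MRCKβ KO), 17.65 (DKO 1) and 16.82 FPKM (DKO 2). ITGAV, the αv subunit of vitronectin receptors, was at 16.20 FPKM in vector 1 and 18.16 in vector 2, against 14.93 in MRCKα KO, 18.13 with MRCKβ knocked out and 16.88 and 16.10 with both. The ranges of ITGA2 and ITGAV overlapped, so their order was not fixed. ITGA1, another collagen-binding subunit, was at 6.18 and 5.83 FPKM in the vector pair and 6.60 and 5.91 in the DKO pair, with 5.73 in MRCKα KO and 7.28 in MRCKβ KO. ITGA10, also collagen-binding, ranged from 0.39 to 1.37 FPKM. The last 3 alpha subunits had low levels, each with a range that overlapped that of its neighbour. ITGA4, known from leukocytes, was at 0.09 (vector 1), 0.26 (vector 2), 0.09 (MRCKα KO), 0.15 (MRCKβ KO), 0.17 (DKO 1) and 0.12 FPKM (DKO 2). ITGA7, the muscle laminin receptor subunit, was at 0.10 FPKM in vector 1 and 0.05 in vector 2, against 0.10 in MRCKα KO, 0.27 with MRCKβ knocked out and 0.13 and 0.10 with both. ITGA11, the last of the collagen-binding subunits, was at 0.04 and 0.05 FPKM in the vector pair and 0.08 and 0.05 in the DKO pair, with 0.02 in MRCKα KO and 0.06 in MRCKβ KO.

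Among the beta subunits, ITGB5, a partner of αv, was second. It was at 34.60 (vector 1), 18.15 (vector 2), 23.39 (MRCKα KO), 34.21 (MRCKβ KO), 25.87 (DKO 1) and 19.71 FPKM (DKO 2). The vector libraries thus enclosed the values of all 4 knockout libraries. ITGB8, a further partner of αv, was at 2.05 FPKM in vector 1 and 0.43 in vector 2, against 1.84 in MRCKα KO, 1.40 with MRCKβ knocked out and 1.80 and 1.07 with both. ITGB3, the β3 subunit of the classical vitronectin receptor, was at 1.66 and 0.67 FPKM in the vector pair and 1.47 and 0.83 in the DKO pair, with 1.08 in MRCKα KO and 2.02 in MRCKβ KO. The ranges of ITGB8 and ITGB3 overlapped, and both were lowest in vector 2. ITGB6 had at most 3 counts in any library and 0 in MRCKα KO and DKO 2, where a count of 0 allows up to 0.289 and 0.285 CPM (counts scaled to the library total).

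ITGB2, the β2 subunit best known from leukocytes, was the third beta subunit. It was at 14.01 (vector 1), 8.74 (vector 2), 16.04 (MRCKα KO), 14.61 (MRCKβ KO), 13.14 (DKO 1) and 8.19 FPKM (DKO 2). Its leukocyte partners ITGAL, ITGAM and ITGAX were at most 0.37 FPKM. Of the 5 blood cell markers, 4 were in the table and 2 had a mean of at least 1 FPKM, with a summed level between 76.81 and 107.67 FPKM in the vector pair and between 80.99 and 98.91 FPKM in the DKO pair, with 74.20 in MRCKα KO and 89.04 in MRCKβ KO, nearly all of it from CD68. The T cell marker CD3E was at most 0.06 FPKM. The pan-leukocyte gene PTPRC was at 0.67 FPKM in vector 1 and 0.28 in vector 2, against 1.24 in MRCKα KO, 0.94 with MRCKβ knocked out and 0.48 and 0.29 with both, in the same order over the libraries as ITGB2 except for vector 2 and DKO 2, which were the 2 lowest for both. The more abundant blood cell markers did not follow that order, since CD68 (98.46 FPKM) and LYZ (8.87 FPKM) were highest in vector 2. PTPRC was singled out after its values were seen, and its part in the ITGB2 level was not tested.

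On the cytoplasmic side, the actin cross-linkers were the most abundant. ACTN4 was at 435.26 and 412.65 FPKM in the vector pair and 416.18 and 415.80 in the DKO pair, with 347.82 in MRCKα KO and 439.98 in MRCKβ KO. ACTN1 was at 258.66 and 277.16 FPKM in the vector pair, 243.97 for MRCKα KO, 249.83 for MRCKβ KO and 236.45 for DKO 1, but 432.84 in DKO 2. The latter stood apart for ACTN1, with a level 1.83 times that of DKO 1, while the other 5 libraries lay between 236.45 and 277.16 FPKM.

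ILK, the pseudokinase of the parvin complex, paxillin (PXN), zyxin (ZYX) and vinculin (VCL) followed, with means between 105.2 and 130.8 FPKM and overlapping ranges between neighbours. ILK was at 142.96 (vector 1), 111.10 (vector 2), 124.65 (MRCKα KO), 140.01 (MRCKβ KO), 139.20 (DKO 1) and 126.89 FPKM (DKO 2). PXN was at 127.96 FPKM in vector 1 and 126.86 in vector 2, against 112.06 in MRCKα KO, 122.92 with MRCKβ knocked out and 124.64 and 117.82 with both. PXN was thus lower in all 4 knockout libraries than in both vector libraries, a pattern whose share over all genes was not counted. Its fitted log2 fold change in DKO was -0.09 with a standard error of 0.11. For the DKO pair alone, 14.2% of all genes lay below both vector libraries in CPM. ZYX, a tension-sensitive LIM protein, was at 110.76 and 114.01 FPKM in the vector pair and 104.50 and 126.28 in the DKO pair, with 97.57 in MRCKα KO and 100.87 in MRCKβ KO. VCL was at 117.50 (vector 1), 96.77 (vector 2), 96.13 (MRCKα KO), 118.58 (MRCKβ KO), 103.32 (DKO 1) and 98.99 FPKM (DKO 2). TLN1, the main talin, was at 83.81 FPKM in vector 1 and 76.79 in vector 2, against 76.69 in MRCKα KO, 85.40 with MRCKβ knocked out and 90.05 and 83.42 with both. TLN1 exceeded TLN2, its paralog, which stayed between 1.76 and 2.10 FPKM, in every library.

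**Figure D2:**
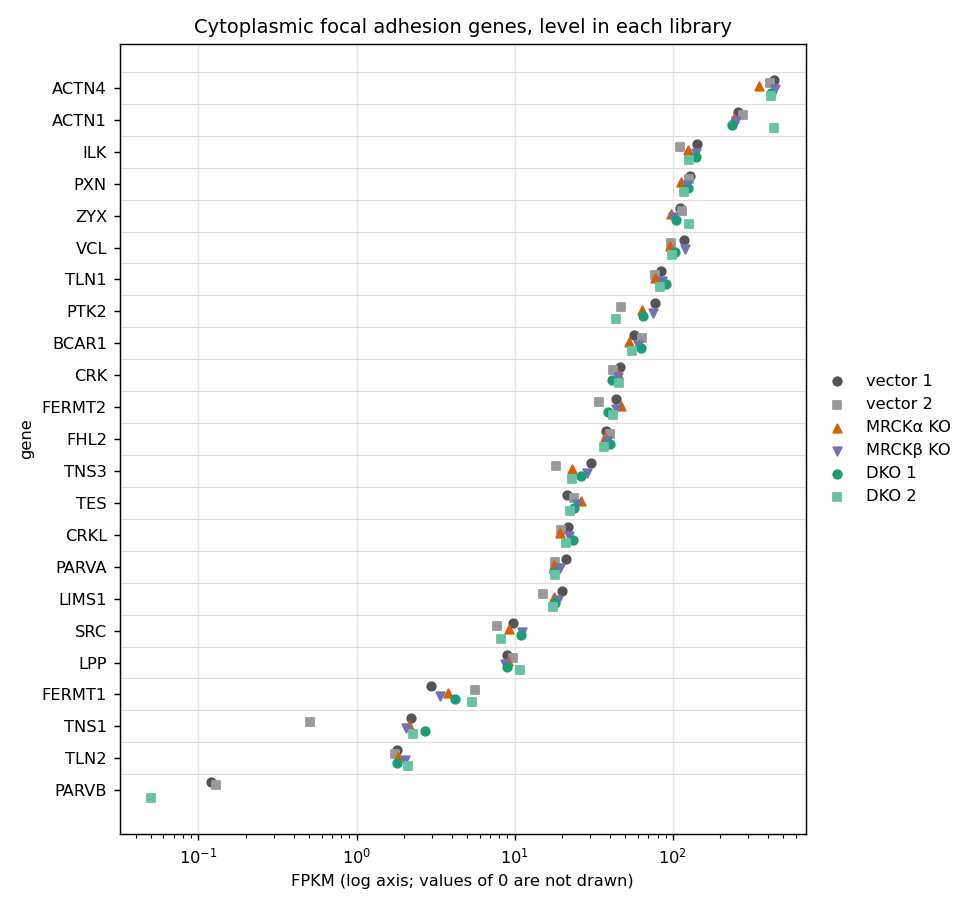
FPKM of the 23 cytoplasmic focal adhesion genes on a log axis, 1 symbol a library, in order of mean level. PARVB is lowest, at or below 0.13 FPKM, and the symbols that stand apart from those of their gene are ACTN1 in DKO 2 at 432.84 FPKM and TNS1 in vector 2 at 0.51 FPKM.

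The remaining cytoplasmic members fell into an intermediate and a low group. FAK (PTK2), the kinase at the centre of adhesion signalling, was at 77.47 and 46.67 FPKM in the vector pair and 64.54 and 43.98 in the DKO pair, with 63.89 in MRCKα KO and 74.85 in MRCKβ KO. BCAR1, CRK, FERMT2, FHL2, TNS3, TES, CRKL, PARVA and LIMS1 had means between 17.8 and 58.7 FPKM. SRC, LPP and FERMT1 were below 12 FPKM in all libraries, and PARVB, the second parvin here, had at most 2 counts. FERMT1, the epithelial kindlin, was at 2.95 (vector 1), 5.64 (vector 2), 3.81 (MRCKα KO), 3.36 (MRCKβ KO), 4.18 (DKO 1) and 5.39 FPKM (DKO 2). It was higher in vector 2 and DKO 2 than in the other libraries, and FERMT2 exceeded it in every library. LPP, a LIM protein related to zyxin, was at 8.98 FPKM in vector 1 and 9.73 in vector 2, against 9.01 in MRCKα KO, 8.63 with MRCKβ knocked out and 8.96 and 10.78 with both. It was estimated with transcript lengths between 13693 and 18163 bases in different libraries, and its vector 1 value was lower than that of vector 2 in FPKM but higher in counts (1762 against 1397), so its small differences depend on the unit. LIMS1 has near-identical copies among which reads could be split, and its value is uncertain for that reason.

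The spread between libraries differed among the members. Over members with a mean of at least 0.5 FPKM, the highest library was a median of 1.56 times the lowest for integrin subunits and 1.26 times for cytoplasmic members, against 1.39 times for all genes in that range. CRK and FHL2 varied least, by 1.12 and 1.09 times. At a mean of at least 0.5 FPKM, TNS1 had the widest range (5.31 times). ITGB8 (4.77), ITGA10 (3.51), ITGB4 (3.29) and ITGB3 (3.01) followed. In each of these 5 the vector libraries themselves differed by more than 2-fold. This was so in 5 of 35 members with a mean of at least 0.5 FPKM, against 5.97% of all genes, and between the DKO libraries it was so in 0 of 35, against 3.73% of all genes. All 5 were lower in vector 2. The median difference of the 35 members in log2(FPKM + 0.1) was -0.13 for vector 2 minus vector 1 and -0.09 for DKO 2 minus DKO 1, against -0.01 and 0.01 over all genes.

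DKO against vector is the only comparison with replicates on both sides. No member passed the test in either direction. After filtering on low counts, 36 of the 40 members entered edgeR's quasi-likelihood test, and ITGA7, ITGA11, ITGB6 and PARVB, with at most 11 counts in a library, did not. None of the 36 had an adjusted p under 0.05 (0.0% of the 13123 genes tested did), and DESeq2 called 4 of all genes and 0 members. At an unadjusted p under 0.05 there was 1 member, ITGB4, against 2.39% of all genes in either direction and 1.02% of all genes on the lower side. This count rested on single libraries. It was 0 members and 135 genes without DKO 2, 2 members (ACTN1 and ITGB4) and 337 genes without DKO 1, 3 members (FERMT1, ITGB4 and ITGB5) and 805 genes without vector 2, and 4 members (ITGB1, ITGB8, TNS1 and TNS3) and 1154 genes without vector 1, where ITGB4 had unadjusted p = 0.115, against 313 genes with all 4 libraries. The median log2 fold change was -0.0077 over the members and -0.0024 over all genes, with 17 members above and 19 below 0. There were 2 libraries a group, from separate transductions in vector and different guides in DKO. The p-values set each difference against the spread between these libraries, with the spread of a gene estimated partly from the other genes.

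**Figure D3:**
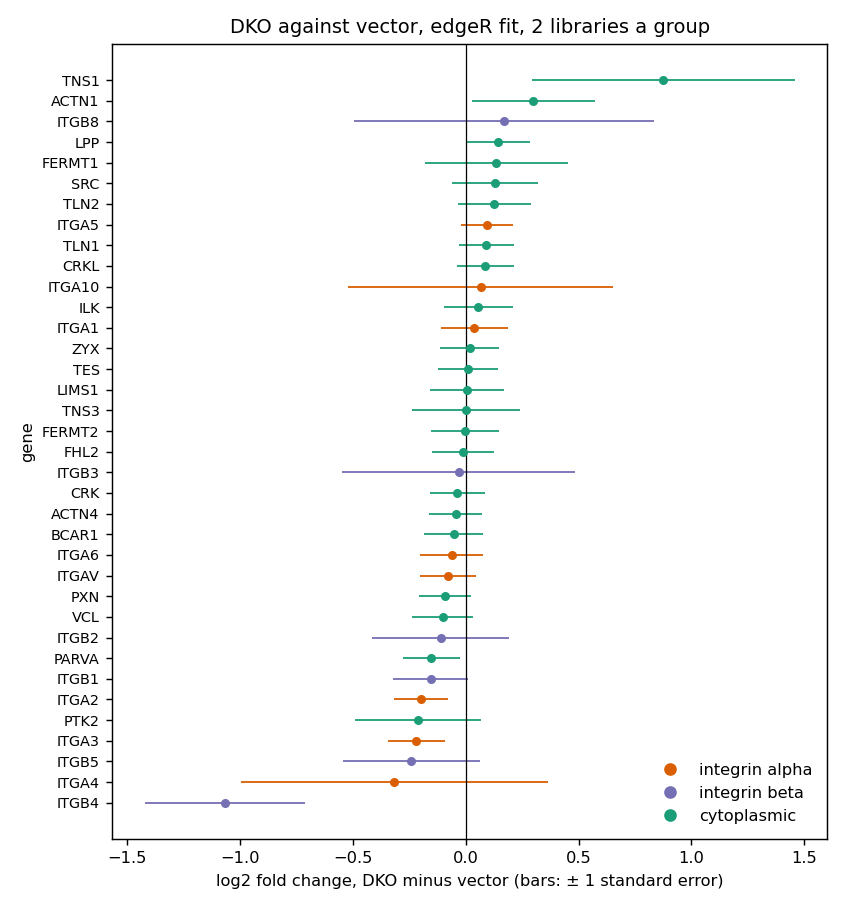
Fitted log2 fold change of DKO minus vector for the 36 members tested, with bars of 1 standard error to each side and colours for alpha subunits, beta subunits and cytoplasmic members. Most points lie near 0, ITGB4 is lowest at -1.07, and TNS1 is highest at 0.88 with a wide bar.

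ITGB4, the β4 subunit that pairs with α6 in the laminin receptor of hemidesmosomes, showed the lowest fold change (Entrez gene 3691, GENCODE v29 on GRCh38, chr17:75721328-75757818, plus strand). It was at 7.15 and 3.55 FPKM in the vector pair and 2.94 and 2.20 in the DKO pair, with 2.62 in MRCKα KO and 7.23 in MRCKβ KO. Both DKO libraries and MRCKα KO were below both vector libraries, and MRCKβ KO was at the level of vector 1. The mean was 5.35 ± 2.55 FPKM (SD, n = 2) in vector and 2.57 ± 0.52 FPKM (SD, n = 2) in DKO. The fitted log2 fold change was -1.07 with a standard error of 0.36, unadjusted p = 0.0226 and an adjusted p of 1.00, so it did not pass. The value rested on vector 1, since it was -0.46 without vector 1 and -1.49 without vector 2, and without DKO 2 it was -0.87 with unadjusted p = 0.0584. Vector 1 itself exceeded vector 2 by 2.01 times, so the control group held a difference of nearly the same size.

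The level of ITGB4 relative to its partner followed its own level. ITGB4 was 13.8% and 5.76% of ITGA6 in FPKM in the vector libraries, 5.14% in MRCKα KO, 13.6% in MRCKβ KO, and 5.72% and 3.75% in DKO. PDGFRB, from the fibroblast marker list, was also highest in vector 1 and MRCKβ KO, at 5.90 and 4.65 FPKM, and was 1.35 in vector 2, 2.19 in MRCKα KO, and 3.15 and 1.14 in DKO. Only 1 of the 5 fibroblast markers reached a mean of 1 FPKM, and their sum was between 1.46 and 7.15 FPKM in the vector pair and between 1.25 and 3.53 FPKM in the DKO pair, with 2.40 in MRCKα KO and 4.85 in MRCKβ KO. The defining markers PDGFRA, DCN and LUM were at most 0.03, 0.29 and 0.14 FPKM, and COL1A2 at most 0.84 FPKM. Of these low genes, DCN was also highest in vector 1 and MRCKβ KO. In MRCKβ KO, however, COL1A2 was at 0.05 FPKM and LUM at 0. PDGFRB was singled out after its values were seen. ITGA2, ITGA10, ITGB3, ITGB5, VCL, PTK2, ILK, PARVA, LIMS1, TNS3 and ACTN4 also had their highest levels in vector 1 and MRCKβ KO. The pattern was thus not particular to ITGB4, and its share over all genes was not counted. The part of the cells' makeup in the ITGB4 level was not tested.

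TNS1, a tensin that links integrin tails to actin, had the highest fold change. It was at 2.20 (vector 1), 0.51 (vector 2), 2.16 (MRCKα KO), 2.06 (MRCKβ KO), 2.71 (DKO 1) and 2.28 FPKM (DKO 2). Vector 2 alone was low, and the other 5 libraries lay between 2.06 and 2.71 FPKM. The log2 fold change was 0.88 with a standard error of 0.58 and an adjusted p of 1.00. It was 2.30 without vector 1 and 0.18 without vector 2. The fold of ACTN1, 0.30 with a standard error of 0.27, rested in the same way on 1 library, being 0.67 without DKO 1 and -0.21 without DKO 2.

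**Figure D4:**
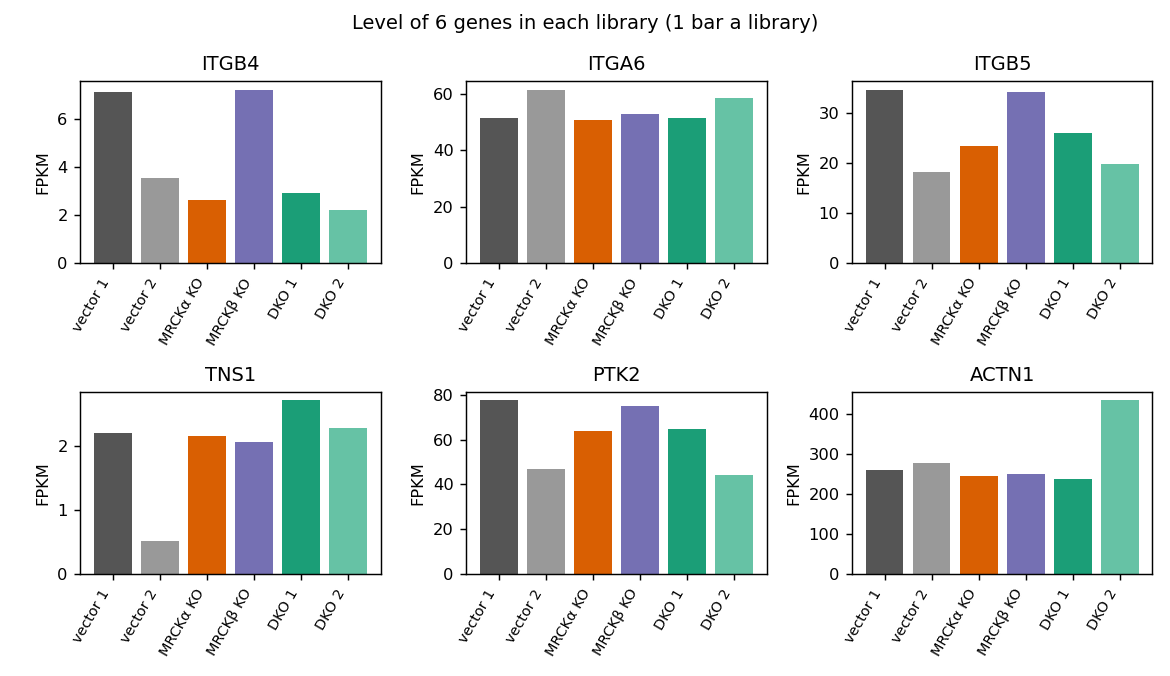
FPKM of ITGB4, ITGA6, ITGB5, TNS1, PTK2 and ACTN1 in each library, 1 bar a library, on linear axes that start at 0. ITGB4, ITGB5 and PTK2 are lower in vector 2 than in vector 1, TNS1 is low in vector 2 alone, ACTN1 is high in DKO 2 alone, and ITGA6 differs little.

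In some members the DKO and vector libraries did not overlap. In CPM, both DKO libraries lay below both vector libraries in 6 of the 36 members (16.7%), against 14.2% of all genes. These were ITGA2, ITGA3, ITGB4, PXN, PARVA and ACTN4. Both DKO libraries lay above both vector libraries in 3 members (ITGA5, TLN2 and TNS1), or 8.33%, against 14.8% of all genes. The share below was near that of all genes, so it does not set the members apart. ITGA3 had a mean of 265.6 ± 15.8 FPKM (SD, n = 2) in vector and 232.9 ± 16.5 FPKM (SD, n = 2) in DKO, a log2 fold change of -0.22 with a standard error of 0.13. ITGA2 differed by -0.20 with a standard error of 0.12, and by -0.28 to -0.11 with a library left out. The 5 lowest fold changes were those of ITGB4, ITGA4 (-0.32), ITGB5 (-0.24), ITGA3 and PTK2 (-0.21), and in ITGA4, ITGB5 and PTK2 the groups overlapped. The 5 highest were those of TNS1, ACTN1, ITGB8 (0.17), LPP (0.14) and FERMT1 (0.13), and in all but TNS1 the groups overlapped. The fold change of LPP was 0.0069 without vector 2, 0.29 without vector 1, and 0.072 with limma on log2(FPKM + 0.1).

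By role, 0 members were called in each group in DKO. The 3 collagen-binding alpha subunits tested had log2 fold changes between -0.20 and 0.07, the 2 laminin-binding ones -0.22 and -0.06, and the 2 that bind the RGD motif of fibronectin and vitronectin -0.08 and 0.09. Of the 6 beta subunits tested, values ran from -1.07 for ITGB4 to 0.17 for ITGB8. Talins, kindlins and vinculin lay between -0.10 and 0.13, and the kinases and adaptors (PTK2, SRC, BCAR1, PXN, CRK and CRKL) between -0.21 and 0.13. The complex of ILK, PINCH (LIMS1) and PARVA lay between -0.15 and 0.06, and the LIM proteins between -0.01 and 0.14. The highest group by median was that of tensins and actinins, at 0.15, through TNS1 and ACTN1.

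MRCKα KO and MRCKβ KO have 1 library each, so their differences have no replicate check and no p is given. All comparisons with vector share the same 2 vector libraries. In MRCKα KO, 18 of the 35 members with a mean of at least 0.5 FPKM lay below both vector libraries, against 26.6% of all genes in that range, and 4 lay above both, against 33.0%. Those above were ITGB2, TLN2, FERMT2 and TES. The alpha subunits below both were ITGA1, ITGA2, ITGA3, ITGA5, ITGA6 and ITGAV, and the summed FPKM of the alpha subunits was 316.56 against 378.79 and 411.29 in vector. Their lowest differences from the mean of the vector libraries in log2(FPKM + 0.1) were -0.39 for ITGA2, -0.37 for ITGA3 and -0.28 for ITGA5. ACTN4, at -0.28, and ITGB1, at -0.25, were also lower, and ITGB4, at -0.92, was the lowest of the 35 members. Some other members below both lay close to the lower vector library. ITGA1 was at 5.73 FPKM against 5.83 in vector 2, ITGA6 at 50.97 against 51.67 in vector 1, and TLN1 at 76.69 against 76.79 in vector 2. The median over the members was -0.08, against 0.03 over all genes. Members share the library, so such a count describes 1 library and not the condition.

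In MRCKβ KO the members leaned to the other side. Here 15 of the 35 members lay above both vector libraries, against 30.5% of all genes, and 4 lay below both, against 29.2%. The 4 below were PXN, ZYX, ACTN1 and LPP. All 3 collagen-binding alpha subunits in that range (ITGA1, ITGA2 and ITGA10) were above both, as were 4 of the 5 talins, kindlins and vinculin. Some of these lay close to vector 1. FERMT2 was at 43.67 FPKM against 43.56 there, VCL at 118.58 against 117.50 and TLN1 at 85.40 against 83.81. ITGA2 stood further above vector 1, at 23.17 against 20.73 FPKM. The median was 0.12, against 0.01 over all genes, with ITGA2 at 0.25, ITGA1 at 0.27 and SRC at 0.35. Set side by side without vector, MRCKα KO was lower than MRCKβ KO in 27 of the 35 members, with a median difference of -0.16, against 47.7% of all genes lower and a median of 0.01. ITGB4 had the lowest of these differences, at -1.43.

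**Figure D5:**
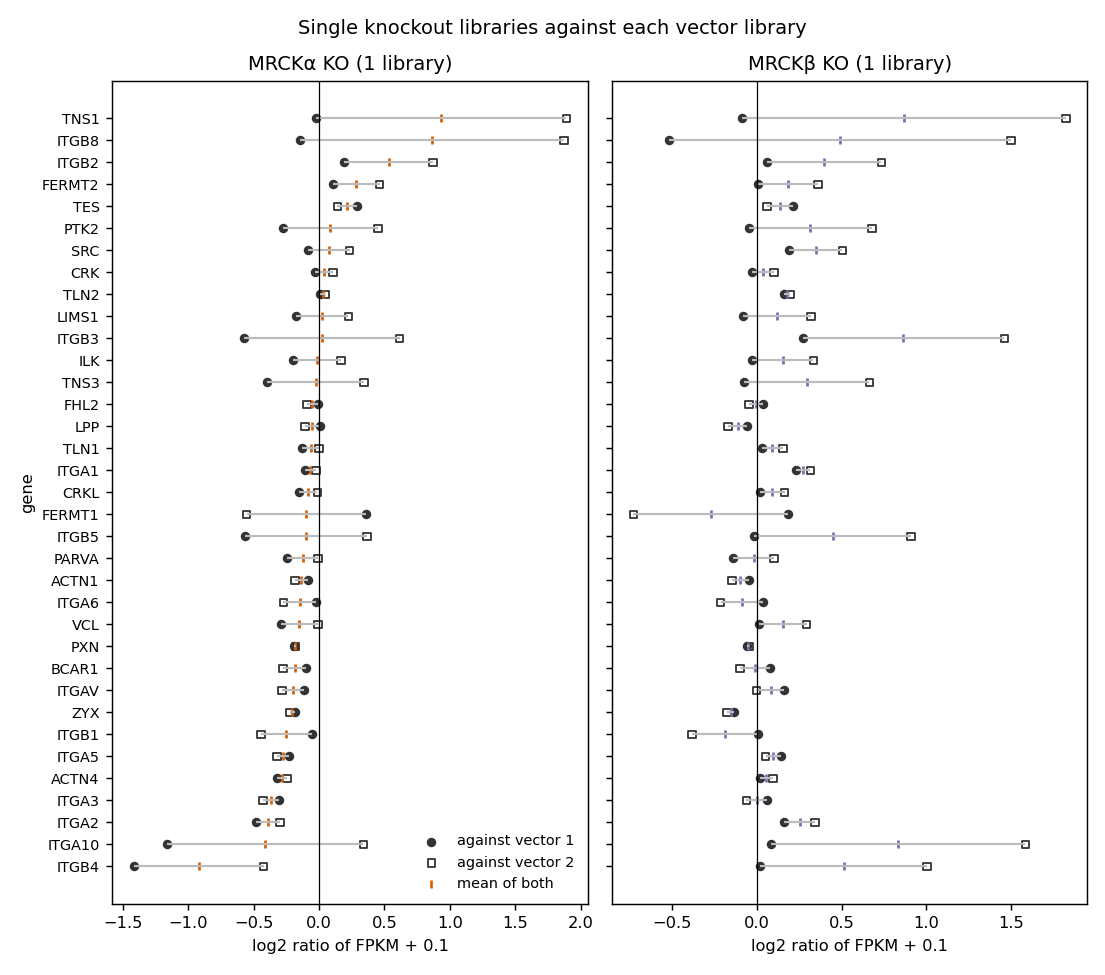
Log2 ratio of FPKM + 0.1 of each single knockout library to vector 1 (filled circles), vector 2 (open squares) and the mean of both (ticks), for the 35 members with a mean of at least 0.5 FPKM, in order of the MRCKα KO value. The distance between circle and square is the difference between the vector libraries, which is widest for TNS1, ITGB8, ITGA10 and ITGB3.

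Which vector library was used changed these medians. For MRCKα KO the median was -0.15 against vector 1 alone, with 29 of 35 members lower, against a median of 0.02 and 47.3% lower over all genes. Against vector 2 alone it was -0.01, with 20 of 35 lower, against 0.03 and 45.9% over all genes. For MRCKβ KO it was 0.02 against vector 1 and 0.16 against vector 2, and over all genes 0.0 and 0.01. The vector libraries differed from each other by a median of -0.13, which was larger in size than the -0.08 and the 0.12 of the single knockouts against their mean. Counting error is narrower for abundant genes than for low ones. For ITGA3 the log2 count ratio of MRCKα KO to the vector libraries was -0.39, with an exact 95% interval from -0.42 to -0.35, and for ITGB4 it was -1.02, from -1.28 to -0.77. Such intervals cover counting error only, since the reads carried no molecular identifiers. In MRCKβ KO the same ratio for ITGB4 was 0.44, from 0.27 to 0.62, although its level was close to that of vector 1.

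The study's fold rule leaves out genes that differ by more than 2-fold between replicates, averages the rest and counts a log2 ratio of at least 1 in size. The study also set poorly expressed genes aside, with no limit stated in its text, and that step was not applied here. Without it 1 of 32 members passed in MRCKα KO, against 4.42% of all genes, 1 of 33 in MRCKβ KO, against 3.53%, and 0 of 32 in DKO, against 1.78%. The member in MRCKα KO was ITGA11, lower, on 3.87, 5.14 and 2.08 expected counts in vector 1, vector 2 and MRCKα KO, a log2 count ratio of -1.10 with an interval from -4.40 to 1.12. The member in MRCKβ KO was ITGA7, higher, on 4, 2 and 11 counts, a log2 count ratio of 1.86 with an interval from 0.30 to 3.58. Both rest on a handful of reads, and at a mean of at least 1 FPKM in either group 0 members passed in any knockout. The replicate filter left out ITGA4, ITGA10, ITGB3, ITGB4, ITGB8 and TNS1 in all knockouts, and ITGB6 and PARVB in DKO, where each was listed at 0 in 1 of the 2 DKO libraries. PARVB in both single knockouts and ITGB6 in MRCKα KO had no ratio because they were listed at 0 in the knockout library. Among the members it kept in DKO, the log2 ratios ran from -0.21 for ITGB5 to 0.62 for ITGA7.

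Other genes of the pathway were taken from 4 further lists, and none of their members passed the test in DKO either. Of 9 other integrin subunits only ITGAE, the αE subunit of mucosal lymphocytes, was tested, at a log2 fold change of 0.11. Of 32 other scaffold and LIM proteins 30 were tested, with 9 higher, 21 lower and a median of -0.04. CASS4, a scaffold related to p130Cas, had the lowest p, with 10.29 and 8.54 FPKM in the vector pair, 6.48 and 7.14 in the DKO pair, 8.16 in MRCKα KO, 9.77 in MRCKβ KO and a log2 fold change of -0.51 (SE 0.15). TNS2, another tensin, was at -0.32 (SE 0.15), and SORBS2, a vinculin-binding adaptor, at -0.87 (SE 0.47). Like ITGB4 and several other members, SORBS2 was highest in vector 1 and MRCKβ KO, at 7.25 and 5.79 FPKM. It was 2.22 in vector 2, 2.77 in MRCKα KO and 2.95 and 1.96 in DKO.

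Of 31 other activators, inhibitors and signalling enzymes 30 were tested, with 17 higher, 13 lower and a median of 0.02. ELMO1, a partner of DOCK1 in RAC activation, reached 2.08 FPKM in DKO 2 and stayed between 0.11 and 0.28 FPKM in the other libraries, so its log2 fold change of 1.90 (SE 0.98) came from 1 library. ARHGEF6 was at -0.56 (SE 0.31) and the SRC-family kinase FYN at 0.22 (SE 0.16). Of 27 integrin ligands other than collagens and laminins 24 were in the table and 15 were tested, with 10 higher and 5 lower. ICAM1, the ligand of β2 integrins, was at 9.21 FPKM in vector 1 and 11.66 in vector 2, against 17.12 in MRCKα KO, 18.46 with MRCKβ knocked out and 25.62 and 29.90 with both. All 4 knockout libraries exceeded both vector libraries, a pattern whose share over all genes was not counted. For the DKO pair alone, 14.8% of all genes lay above both vector libraries in CPM. ICAM1 had the lowest p of the 15 ligands tested. Its log2 fold change in DKO was 1.39 (SE 0.17, unadjusted p = 0.000144 in the edgeR test) and did not pass adjustment over all genes. FBN1, a microfibril protein, was at 0.30 (SE 0.15), and TGFBI, a secreted integrin ligand, at -0.67 (SE 0.36).

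Some member values may include reads of overlapping genes. In GENCODE v29, 21 of the 40 members share exonic bases with another gene, and 8 of them share more than 5% (ITGB2, ITGB3, ITGB6, VCL, PXN, ILK, ACTN4 and TES). On the same strand, ITGB3 shares 51.6% of its exonic bases with AC068234.1 and ITGB6 20.6% with AC092153.1, and neither of these genes is in the table. On the opposite strand, reads could be told apart only if the counting used strand, which was not given in the sources used here. VCL shares 16.6% there with AP3M1, which was between 26.22 and 27.82 FPKM. ACTN4 shares 12.6% with CAPN12, which was between 26.03 and 36.21 FPKM. ITGB4, ITGA3 and ITGB1 share none.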

How the data were processed

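RNA of 6 MDA-MB-231 libraries was sequenced as single-end reads on the BGISEQ-500 platform. Expected counts, as deposited, estimate each gene's reads, without normalization, and need not be whole (whole in all 6 libraries for 22 of the 40 members). For the authors, BGI also computed the FPKM values from these reads, which are deposited rounded. The submitters' processing notes name HISAT, Bowtie2 and RSEM and the build GRCh38.p11, with versions not given in the sources used here. Groups came from the labels.

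For DKO against vector, expected counts were rounded, filtered with filterByExpr, normalized by TMM and tested with edgeR 4.0.16 (glmQLFit, glmQLFTest, no replicate block), with Benjamini-Hochberg adjustment over all genes and a threshold of 0.05. The script was tested on simulated data. For 1 library a group, log2(FPKM + 0.1) was used over genes with a mean of at least 0.5 FPKM, which understates changes of low genes. Intervals of count ratios are exact at 95%, and a count of 0 allows up to 3 counts. Alternatives used DESeq2 1.42.0, limma 3.58.1, other normalizations, filters, pseudocounts and left-out libraries.

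The members and lists were chosen with earlier results of these data known. Values in all libraries are given for the 10 members with the highest levels, the 5 highest and 5 lowest fold changes in DKO, members with an unadjusted p under 0.05 or past the fold rule, and integrin subunits with a mean of at least 1 FPKM. Of the other lists, the 3 genes with the lowest p are named. Members outside this rule were named for their ranges or library patterns after their values were seen.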

Additional observations from a re-analysis of the deposited data

How the results depend on the processing

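No member was called in DKO against vector under any alternative run. The number of all genes called was 0 in the reported fit, 4 with DESeq2, 5 with the replicate number as a block and 0 to 5 with a library left out, and the number at an unadjusted p under 0.05 was 313 and, with DESeq2, 203. The numbers share a correlation of 0.30 between vector and DKO deviations over 13123 genes. With 2 pairs and no shared source stated, they were not taken to pair the samples. With the replicate block ITGB4 had a log2 fold change of -1.01 (unadjusted p = 0.000554, adjusted p = 0.251). TNS1 was then at 1.11 (unadjusted p = 0.0123, adjusted p = 0.657) and ITGB3 at 0.028, and 796 genes had an unadjusted p under 0.05. ITGB3 also turned positive with limma on log2(FPKM + 0.1) (0.054) and log2(FPKM + 1) (0.013). The other 210 of 213 values of the 24 tested members kept their sign under alternatives that kept all libraries. With 1 library left out, where the lone library was assumed to vary like the others, 23 of 96 values in 15 members changed sign. The ranges of log2 fold change were -0.054 to 0.12 for ITGA1, -0.90 to 0.65 for ITGA4, -0.19 to 0.075 for ITGA6, -0.16 to 0.0080 for ITGAV, -0.34 to 0.056 for ITGB1, -0.50 to 0.27 for ITGB2, -0.54 to 0.77 for ITGB3, -0.63 to 0.29 for ITGB5, -0.56 to 1.72 for ITGB8, -0.23 to 0.041 for VCL, -0.12 to 0.14 for ZYX, -0.53 to 0.19 for PTK2, -0.11 to 0.24 for ILK, -0.26 to 0.68 for FERMT1 and -0.21 to 0.67 for ACTN1. Under the fold rule the number of members was 1 in MRCKα KO, against 0 with pseudocount 1, 2 without the replicate filter (ITGB4 added), 0 at a mean FPKM of at least 1, and 3 to 5 with 1 vector library, and with pseudocount 0.1 it was 1 but a different member, PARVB. In MRCKβ KO it was 1, against 2 with pseudocount 0.1, 0 with pseudocount 1, 0 at a mean FPKM of at least 1, and 1 to 7 with 1 vector library. In DKO it was 0, against 2 without the replicate filter (ITGB4 and PARVB) and 1 to 4 with 1 vector library. The median log2 ratio of the members was 0.016 to 0.16 in MRCKβ KO and -0.15 to -0.01 in MRCKα KO with 1 vector library. Depth limits ITGA4, ITGA7, ITGA11, ITGB6 and PARVB, which had 20 counts or fewer in every library. The cause of these changes was not tested.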
